A study of Mus musculus with 52 samples.

Results

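Vascular endothelial cells (ECs) of the cerebellum, which form a blood-brain barrier (BBB), were compared by RNA-seq with ECs of the posterior pituitary, a neural lobe whose capillaries are fenestrated. The comparison rests on 4 of the 52 samples of the series, chosen by their labels: 2 libraries of wild-type (WT) GFP-positive cells from cerebellum and 2 from posterior pituitary. All 4 came from adult male Tie2-GFP mice, in which the Tie2 (Tek) promoter drives GFP in ECs, and the cells were sorted after papain dissociation. Each pituitary replicate pooled 20 to 30 mice aged between postnatal day 30 and 90, and the lobes were collected apart. The WT mice carried no Cre and no altered beta-catenin allele. The groups used beside the main comparison were WT GFP-positive cells of the anterior pituitary, the GFP-negative cells of each WT tissue, WT RiboTag; Pdgfb-CreER cortex and choroid plexus (ribosome-bound RNA of mice aged 6 to 8 weeks, in which Pdgfb-CreER switches on the tag in ECs after 4HT was injected, with choroid plexi of 3 to 4 mice pooled), and ATAC-seq of WT GFP-positive cells. Libraries of mice with the BcatEx3fl allele and Pdgfb-CreER, given 4HT so that beta-catenin was stabilized in ECs, entered the fits for their estimate of the spread. Those of sorted cells also carried Tie2-GFP, and none of these libraries is described. Of the sorted ones, 1 from anterior pituitary carries labels that disagree on the lobe. Without it 378 genes were higher in cerebellum and 390 in posterior pituitary, 189 and 287 of them EC-enriched, against the 303, 304, 154 and 225 given below.

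Brain capillaries restrict diffusion through continuous tight junctions and sparse vesicles, and carry nutrients across with dedicated transporters. Canonical Wnt signaling through beta-catenin in ECs is known to maintain this state in most of the brain and retina. In the posterior pituitary, vasopressin and oxytocin released from nerve endings enter the blood through fenestrated capillaries, whose fenestrae carry a diaphragm built of PLVAP. By anatomy, ECs of both tissues therefore lie in neural tissue and differ in their barrier. The posterior pituitary samples also held transcripts of endocrine cells, given below.

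The cerebellar libraries held 33458597 and 28116011 estimated counts, and the posterior pituitary libraries 28788137 and 17260078. Across 17915 genes, replicate log2 CPM (counts scaled to library size) correlated with r = 0.889 in cerebellum and r = 0.819 in posterior pituitary, a description across genes, which are not independent replicates. Mitochondrial transcripts took 12.6% and 16.1% of counts in the cerebellar libraries and 8.56% and 6.02% in the posterior pituitary libraries. Levels are given as TPM, the transcript abundance of a library scaled to a fixed total, and differences as the fitted log2 ratio of cerebellum over posterior pituitary ± its standard error (edgeR quasi-likelihood test, Benjamini-Hochberg adjusted p over all 17915 genes). The TPM scale sits lower for cerebellum: among the 6652 genes with a mean above 10 TPM the median log2(TPM + 1) difference was -0.38, against -0.06 for the fitted ratio, and the ratios below are from the fit. The 10 endothelial markers summed to 4146 and 3325 TPM in cerebellum and to 7252 and 5240 TPM in posterior pituitary, against 18.6 and 26.2 TPM and 7.17 and 3.40 TPM in the GFP-negative cells of the same tissues. In sorted bulk cells, fewer cells of a type and less RNA per cell cannot be told apart.

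A gene was called when its adjusted p was under 0.05, its ratio at least 2-fold and both libraries of the higher tissue had at least 10 TPM. By this rule 303 genes (1.69% of those tested) were higher in cerebellar ECs and 304 (1.70%) in posterior pituitary ECs. To leave out RNA of parenchymal cells, genes were also required to be higher in GFP-positive than in GFP-negative cells of the same tissue by the same thresholds, which 795 genes met in cerebellum (3.72% of 21343) and 1150 in posterior pituitary (5.39%). This left 154 EC-enriched genes higher in cerebellar ECs (0.860%) and 225 EC-enriched genes higher in posterior pituitary ECs (1.26%). Their median absolute log2 ratio was 2.63 and 2.01, and 64 and 74 of them differed at least 8-fold, with genes at 3 or fewer counts in a group entered at a bound or count ratio. When the effective gene length that Salmon estimates per library was offset, 92 and 138 EC-enriched genes passed. With only these 4 libraries in the fit 90 and 95 passed. Of all genes, 201 and 189 passed with the offset and 157 and 130 with only the 4 libraries. DESeq2 called 471 genes higher in posterior pituitary, 347 of them EC-enriched. Without a filter on low counts these were 464 and 350, and 237 EC-enriched genes were higher in cerebellum.

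**Figure D1:**
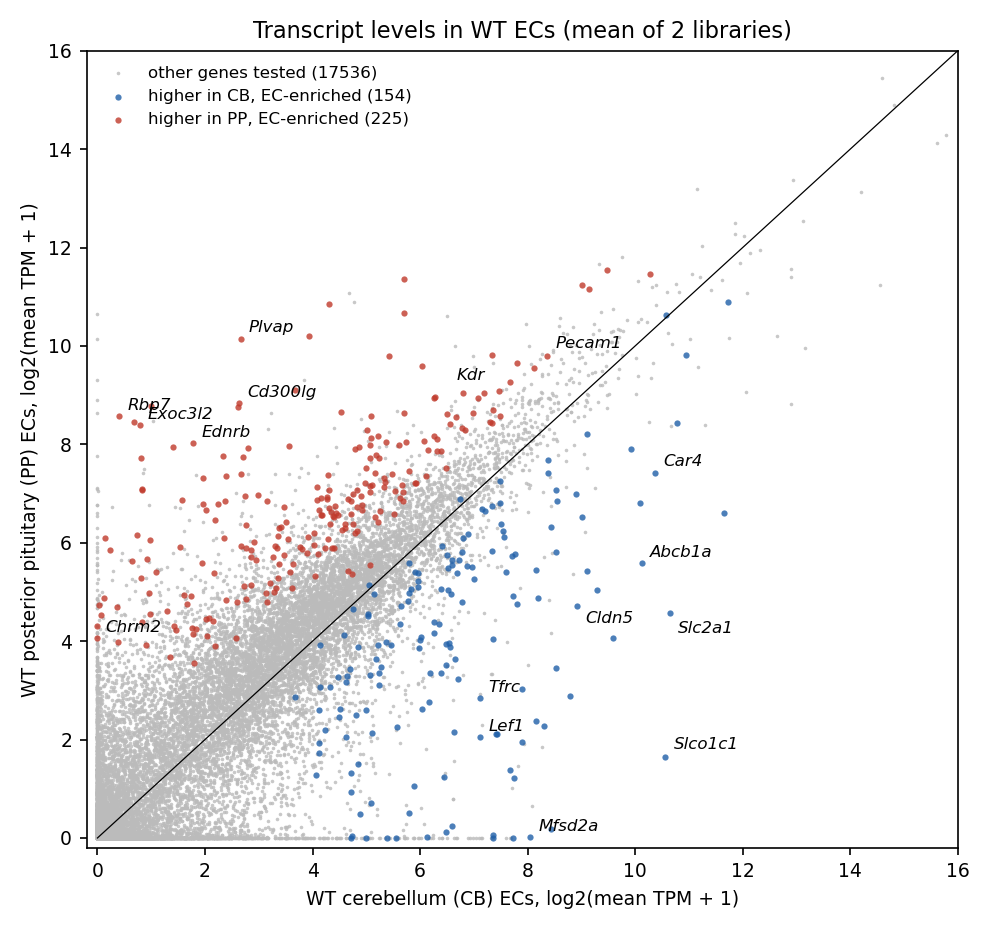
Mean TPM of 2 libraries in WT cerebellar ECs (x axis) against WT posterior pituitary ECs (y axis), both as log2(TPM + 1), with the line of equal levels. Blue points are the 154 EC-enriched genes called higher in cerebellum and red points the 225 called higher in posterior pituitary; Slc2a1, Slco1c1 and Mfsd2a lie far below the line and Plvap far above it.

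Transporters of the BBB were higher in cerebellar ECs. Of 25 solute and nutrient transporters, 21 were called higher in cerebellar ECs and 0 in posterior pituitary ECs, with a median log2 ratio of 5.61, against 0.00 over all genes tested, and 17 of the 21 were EC-enriched. This list and those below were chosen with earlier results of these data known. Their counts and medians therefore describe the chosen genes and are no test of a pathway. Slc2a1 (chr4:119108711-119137983, GRCm38), the glucose transporter GLUT1, was at 1579 and 1625 TPM in the cerebellar libraries and at 21.1 and 24.8 TPM in the posterior pituitary libraries. The groups lay far apart, with a log2 ratio of 7.05 ± 0.42 (adjusted p = 2.9e-06). Slco1c1 (chr6:141524368-141570177), a carrier of thyroid hormone, was at 1679.9 and 1345 TPM in cerebellum and at 2.51 and 1.72 TPM in posterior pituitary, a log2 ratio of 10.27 ± 0.44 (adjusted p = 2.2e-07). Slc22a8, an organic anion carrier, was at 157.8 and 167.8 TPM against 0.0940 and 0.00 TPM, a log2 ratio of 12.11 ± 0.77 (adjusted p = 3.7e-06). The posterior pituitary thus held a small but counted amount of Slco1c1, and near none of Slc22a8.

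Mfsd2a (chr4:122946850-122961188), which carries lysophospholipids with docosahexaenoic acid and restrains vesicle traffic in brain ECs, was at 163.7 and 363.7 TPM in cerebellum and had 1 count in the posterior pituitary libraries together against 31507 in cerebellum. No count was found in posterior pituitary for Slc19a3, a thiamine carrier at 22.6 and 28.0 TPM in cerebellum and at least 1297-fold higher there when 3 counts over the group are taken as the floor. The same held for Slc7a3, a carrier of cationic amino acids at 29.5 and 52.2 TPM in cerebellum, which was at least 890-fold higher. All 3 passed the edgeR test, with adjusted p values of 8.4e-07, 0.0014 and 0.00058. Slc7a5, the large neutral amino acid carrier LAT1, was at 254.2 and 374.7 TPM in cerebellum and 7.64 and 0.0414 TPM in posterior pituitary (log2 ratio 7.41 ± 1.19, adjusted p = 0.0026), where the pituitary replicates themselves were far apart. Slc38a5, a glutamine carrier, was at 68.7 and 121.9 TPM in cerebellum against 0.00 and 0.354 TPM, a log2 ratio of 10.08 ± 1.18 (adjusted p = 0.00036). Slc40a1, the iron exporter ferroportin, was at 367.2 and 321.2 TPM against 0.263 and 0.0229 TPM, a log2 ratio of 9.57 ± 0.66 (adjusted p = 6.5e-06). Smaller ratios were found for the taurine carrier Slc6a6 (log2 ratio 1.19 ± 0.29) and for Slc3a2, the heavy chain that partners LAT1 (1.14 ± 0.25). The Slc6a6 call was lost without cerebellum replicate 1 (adjusted p = 0.115) or posterior pituitary replicate 2 (adjusted p = 0.118). On the log2(TPM + 1) scale Slc3a2 turned the other way (-0.11), and its call was lost without cerebellum replicate 2 (adjusted p = 0.0538) or posterior pituitary replicate 2 (adjusted p = 0.0978). Slc5a6, a carrier of biotin and pantothenate (2.75 ± 0.69, adjusted p = 0.0403), lost its call without each of the 4 libraries (adjusted p = 0.0598 to 0.241) and with the length offset (0.277), and the 2.33 of Slco2b1, an organic anion carrier whose TPM ranges overlapped, fell to 0.61 with the offset (adjusted p = 0.703). The offset also ended the calls of Slc3a2 (adjusted p = 0.831) and Slc6a6 (0.148), and a fit of only the 4 libraries those of Slc7a5 (0.0982), Slc3a2 (0.207) and Slc6a6 (0.263). The size of some ratios rests on 1 posterior pituitary library, since the other was at or near 0 TPM and a ratio fitted without it is no bound: it was 17.70 for Slc22a8, 12.44 for Slc7a5 and 11.72 for Slc40a1 without replicate 1, and 15.85 for Slc38a5 without replicate 2. The 4 members that were not called were Slc52a3, Slc2a3, Slc1a4 and Slc6a9.

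Efflux pumps did not move as a group. Of 11 ATP-binding cassette (ABC) transporters, 2 were called higher in cerebellar ECs and 1 in posterior pituitary ECs, with a median log2 ratio of -0.30. Abcb1a (chr5:8660077-8748575), the P-glycoprotein MDR1A, was at 1299 and 924.5 TPM in cerebellum and at 62.9 and 30.7 TPM in posterior pituitary, a log2 ratio of 3.43 ± 0.37 (edgeR adjusted p = 0.00014). This ratio was 4.98 with the length offset, and the log2(TPM + 1) difference of Abcb1a was 4.61. Abcg2, the breast cancer resistance protein, was at 349.2 and 248.5 TPM in cerebellum and 347.3 and 275.1 TPM in posterior pituitary, so that the groups overlapped (log2 ratio 0.37 ± 0.25, adjusted p = 0.51). The posterior pituitary ECs thus kept a low level of Abcb1a beside a level of Abcg2 close to that of cerebellum. Abcc4 was the other pump higher in cerebellum (log2 ratio 1.58 ± 0.31, adjusted p = 0.01). Abca1, a cholesterol exporter, was higher in posterior pituitary (-1.34 ± 0.30, adjusted p = 0.0226), and its call was lost without cerebellum replicate 1 (adjusted p = 0.184) and with the length offset (0.0789). With only the 4 libraries in the fit, neither Abcc4 (adjusted p = 0.085) nor Abca1 (0.194) passed.

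**Figure D2:**
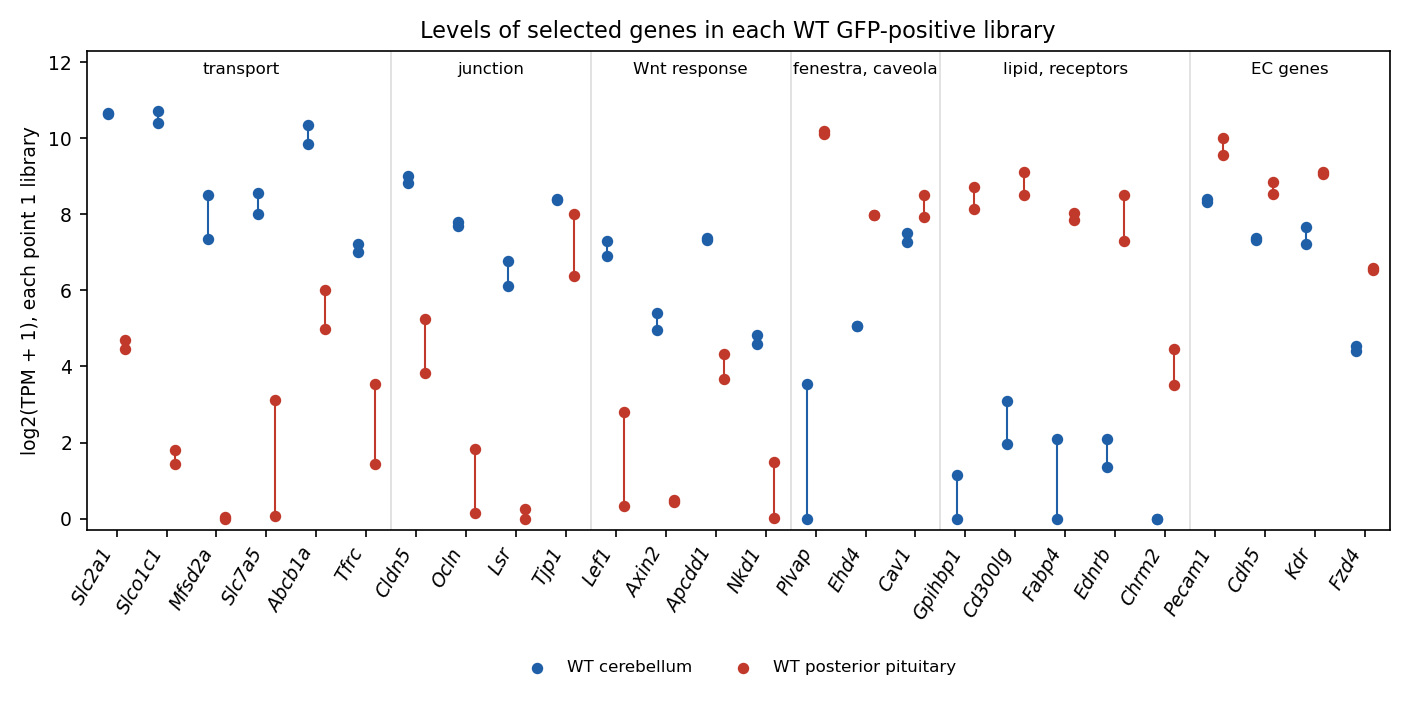
Levels of 26 named genes as log2(TPM + 1) in each WT GFP-positive library; each point is 1 library, lines join the 2 replicates, and blue and red mark cerebellum and posterior pituitary. Slc2a1 lies at 1579 and 1625 TPM in cerebellum and 21.1 and 24.8 TPM in posterior pituitary, Plvap at 0.00 and 10.7 TPM against 1160 and 1112 TPM, and Tjp1 differs far less than Cldn5.

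Junction genes were split by member. Of 18 tight junction genes, 8 were called higher in cerebellar ECs, 5 of them EC-enriched, and 1 in posterior pituitary ECs (median log2 ratio 0.93). Cldn5 (chr16:18776847-18778262), the main claudin of brain ECs, was at 452.8 and 510.6 TPM in cerebellum and 37.2 and 13.2 TPM in posterior pituitary, a log2 ratio of 4.98 ± 0.52 (edgeR adjusted p = 1e-04). Ocln, which encodes occludin, was at 206.1 and 223.0 TPM against 2.54 and 0.102 TPM, with a log2 ratio of 7.19 ± 0.90 (adjusted p = 4e-04). Lsr, which encodes angulin-1, a protein of tricellular junctions, was at 108.9 and 68.4 TPM against 0.184 and 0.00 TPM, with a log2 ratio of 10.48 ± 1.29 (adjusted p = 0.00036). In posterior pituitary, Cldn5 transcripts were thus still counted at more than 10 TPM in both libraries, while Ocln and Lsr were near absent. The scaffold Tjp1 (ZO-1) was at 329.1 and 337.2 TPM in cerebellum and at 82.8 and 255.6 TPM in posterior pituitary, a log2 ratio of 1.74 ± 0.25 (adjusted p = 0.0012). With the length offset, Tjp1 (adjusted p = 0.304) and Marveld2 (0.0704) did not pass, nor did Tjp1 (0.0772), Marveld2 (0.0787) and Cgnl1 (0.17) with only the 4 libraries. Without posterior pituitary replicate 1, where the library left was at 0.102 TPM for Ocln and 0.00 TPM for Lsr, their fitted ratios were 10.86 and 15.95. Jam3, a junctional adhesion molecule, went the other way, at 5.83 and 4.90 TPM in cerebellum and 242.6 and 90.6 TPM in posterior pituitary (-4.37 ± 0.92, adjusted p = 0.0146). Esam, F11r and Jam2, junction genes found in many endothelia, were expressed in both tissues and were not called.

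Of 12 feedback and target genes of canonical Wnt signaling, 5 were called higher in cerebellar ECs, 0 in posterior pituitary ECs and 7 in neither, and the median log2 ratio was 4.28, or 4.23 with genes at 3 or fewer counts entered at a bound or count ratio. Axin2, a negative regulator of the pathway, was at 30.2 and 41.5 TPM in cerebellum and 0.356 and 0.405 TPM in posterior pituitary, a log2 ratio of 5.76 ± 1.16 (edgeR adjusted p = 0.0115). Apcdd1, an inhibitor at the receptor, was at 165.8 and 157.9 TPM against 11.8 and 18.99 TPM, a log2 ratio of 4.31 ± 0.33 (adjusted p = 1.3e-05). Nkd1, another feedback inhibitor, was at 27.5 and 23.2 TPM against 1.80 and 0.0129 TPM, a log2 ratio of 6.73 ± 0.81 (adjusted p = 0.00031; 10.66 without posterior pituitary replicate 1). Notum, a secreted enzyme that inactivates Wnt ligands, had no count in posterior pituitary and was at least 1119-fold higher in cerebellum against the 3-count floor, at 70.9 and 35.1 TPM. Tnfrsf19, a receptor of the tumor necrosis factor family, also had no count there and was at least 3856-fold higher. Axin2, Notum and Tnfrsf19 did not pass the test of GFP-positive over GFP-negative cells in cerebellum, so that only Apcdd1 and Nkd1 of this list are among the 154 EC-enriched genes.

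Of 12 receptors and transducers of the pathway, 6 were called higher in cerebellum and 3 in posterior pituitary, 4 and 3 of them EC-enriched. Of the former Lrp6 (adjusted p = 0.175) and Reck (0.178), and all 3 of the latter, did not pass with only the 4 libraries in the fit, and with the length offset Lrp6 (0.161) and Reck (0.201) did not pass. Lef1 (chr3:131110471-131224356), the transcription factor that pairs with beta-catenin, was at 156.2 and 119.7 TPM in cerebellum and 0.258 and 6.04 TPM in posterior pituitary (log2 ratio 6.76 ± 1.37, edgeR adjusted p = 0.0118; 0.0609 with the length offset; ratio 8.46 without posterior pituitary replicate 2). Its relative Tcf7 was at 26.2 and 23.9 TPM against 0.231 and 0.00 TPM (8.96 ± 1.18, adjusted p = 0.00054; 14.11 without posterior pituitary replicate 1). Adgra2 (GPR124), the co-receptor for WNT7 ligands, was at 32.2 and 21.7 TPM against 6.52 and 2.83 TPM (2.79 ± 0.31, adjusted p = 0.00018). Fzd4, the Frizzled receptor for Norrin and several Wnts, was higher in posterior pituitary, at 91.4 and 95.2 TPM against 22.1 and 20.1 TPM (-1.92 ± 0.31, adjusted p = 0.0025; 0.0632 with only the 4 libraries). Its co-receptors Tspan12 (-1.39 ± 0.28, adjusted p = 0.0105) and Lrp5 (-1.44 ± 0.37, adjusted p = 0.0482) were also called higher there, Tspan12 not without cerebellum replicate 1 (adjusted p = 0.127), with only the 4 libraries (0.141) or with the length offset (0.192). The Lrp5 call was lost without cerebellum replicate 1 (adjusted p = 0.166), cerebellum replicate 2 (0.0764) or posterior pituitary replicate 2 (0.389, with a ratio of -0.77), and with only the 4 libraries (0.209). Ctnnb1 itself, which encodes beta-catenin, was at 927.7 and 1664 TPM against 774.0 and 833.0 TPM and was not called (adjusted p = 0.44). The remaining calls in cerebellum, Fzd6, Lrp6 and Reck, had log2 ratios between 1.15 and 1.84 and were each lost without at least 1 library, Fzd6 without posterior pituitary replicate 1 (adjusted p = 0.0675), Lrp6 in 3 of the 4 omissions and Reck in all 4.

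Among transcription factors of ECs, 6 of 26 were called higher in cerebellum and 2 in posterior pituitary (median log2 ratio 0.28), of which 3 and 2 were EC-enriched; Foxf2 and Ppard were not. Foxq1, a forkhead factor of brain ECs, was at 29.2 and 22.1 TPM in cerebellum and at 0.00 and 0.0711 TPM in posterior pituitary, a log2 ratio of 9.96 ± 0.93 (edgeR adjusted p = 7.4e-05). Foxf2 and Foxc1, forkhead factors of the brain vasculature and its mural cells, were higher as well (2.66 ± 0.54, adjusted p = 0.0143, and 3.22 ± 0.36, adjusted p = 0.00018). Mecom had a log2 ratio of 2.38 ± 0.38 (adjusted p = 0.0023). Ppard was called higher too (3.04 ± 0.60), and its call was lost without cerebellum replicate 2 (adjusted p = 0.0514) or posterior pituitary replicate 2 (adjusted p = 0.0516). Elk3 (-1.33 ± 0.27) and Prdm1 (-1.81 ± 0.39) were higher in posterior pituitary, Elk3 not without cerebellum replicate 1 (adjusted p = 0.0842) and Prdm1 not without cerebellum replicate 1 (adjusted p = 0.115) or cerebellum replicate 2 (adjusted p = 0.107). With the length offset 5 of these 8 calls were lost, those of Mecom (log2 ratio 1.59, adjusted p = 0.192), Foxf2 (0.0611), Ppard (0.273), Elk3 (0.291) and Prdm1 (0.0786), and with only the 4 libraries those of Elk3 (0.178) and Prdm1 (0.0566). The ratio of Foxq1 without posterior pituitary replicate 2 was 15.37, fitted against a library at 0.00 TPM. General endothelial factors such as Erg, Sox7 and Sox18 were counted in all 4 libraries and were not called.

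Posterior pituitary ECs carried the transcript of the fenestral diaphragm. Plvap (chr8:71497765-71511752) was at 1160 and 1112 TPM in the posterior pituitary libraries and at 0.00 and 10.7 TPM in the cerebellar libraries. The cerebellar replicates thus differed from each other, and both lay far below the pituitary libraries. The log2 ratio was -7.37 ± 1.84 (edgeR adjusted p = 0.04), and it kept its call without any 1 of the 4 libraries but not with only these 4 libraries in the fit (adjusted p = 0.223). The size of this ratio rests on cerebellum replicate 2, since without it the cerebellar level was 0.00 TPM and the fitted ratio -18.81, which is no bound. Of 12 genes of the diaphragm and caveolae, 4 were called higher in posterior pituitary and 0 in cerebellum, with a median log2 ratio of -0.45. Ehd4, a dynamin-like ATPase of membrane traffic, was at 250.02 and 253.9 TPM against 32.7 and 32.3 TPM (-2.73 ± 0.26, adjusted p = 5.6e-05), and Cavin3, a caveolar coat protein, at 133.9 and 66.5 TPM against 19.9 and 12.7 TPM (-1.92 ± 0.27, adjusted p = 0.00081). Cavin2 had a log2 ratio of -1.03 ± 0.25, and its call was lost in 3 of the 4 omissions of a library (highest adjusted p = 0.212, without cerebellum replicate 2) and with the length offset (0.188). With only the 4 libraries Cavin2 (adjusted p = 0.224) and Cavin3 (0.0516) did not pass. Cav1, the main structural protein of endothelial caveolae, was at 360.1 and 241.9 TPM in posterior pituitary and 153.6 and 180.9 TPM in cerebellum. Its fitted log2 ratio was -0.31 ± 0.29 and was not called (adjusted p = 0.67).

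Receptors for macromolecules went both ways: of 15, 3 were called higher in cerebellum and 4 in posterior pituitary, 2 and 3 of them EC-enriched. Tfrc, the transferrin receptor, was at 147.9 and 127.4 TPM in cerebellum and 10.6 and 1.72 TPM in posterior pituitary (log2 ratio 7.22 ± 0.79, edgeR adjusted p = 0.00015). The size of the Tfrc ratio depends on the scale: it was 5.00 with the length offset, and the log2(TPM + 1) difference was 4.62. Igf1r, the receptor of insulin-like growth factor, was at 99.5 and 78.0 TPM against 12.1 and 8.91 TPM (3.83 ± 0.27, adjusted p = 6.5e-06). Lepr, the leptin receptor, was at 62.3 and 51.9 TPM in posterior pituitary and 4.96 and 7.44 TPM in cerebellum (-2.68 ± 0.39, adjusted p = 0.0013). Scarb1, a receptor of high-density lipoprotein, was higher in posterior pituitary (-2.05 ± 0.27, adjusted p = 0.0006), as was Cd36, a fatty acid receptor at 23.95 and 31.7 TPM against 1.62 and 0.0726 TPM (-6.21 ± 0.96, adjusted p = 0.0026). Lrp8, a receptor of reelin and apolipoprotein E, was the remaining call in cerebellum (7.70 ± 1.40, adjusted p = 0.0059; 12.16 without posterior pituitary replicate 1), and Stab1 the remaining call in posterior pituitary (-1.58 ± 0.36), lost without cerebellum replicate 1 (adjusted p = 0.127) or posterior pituitary replicate 2 (-1.02, adjusted p = 0.141), with the length offset (0.489) and with only the 4 libraries (0.204).

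**Figure D3:**
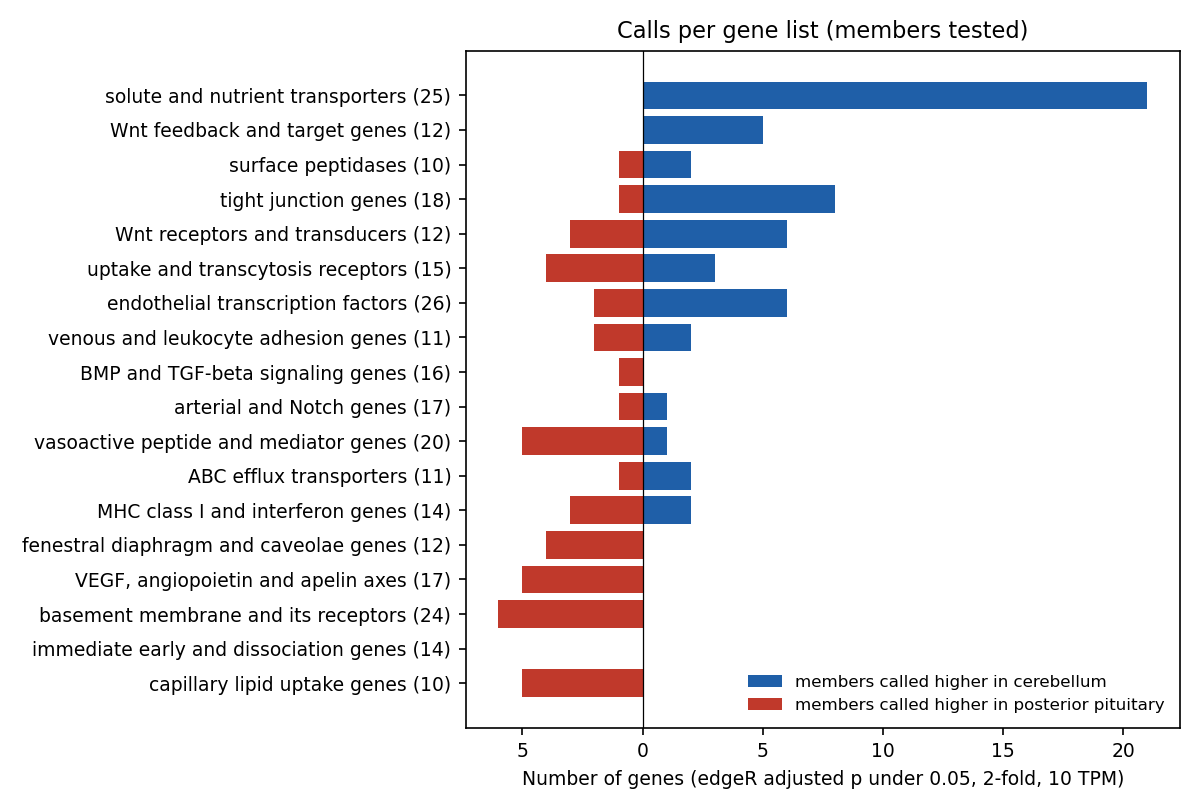
Number of genes in each list called higher in WT cerebellar ECs (blue, right) or WT posterior pituitary ECs (red, left), with the number tested in brackets and the lists in order of their median log2 ratio. The solute transporters have 21 calls to the right and 0 to the left, and the lists of lipid uptake, basement membrane, vascular growth factor, diaphragm and BMP genes have calls to the left alone.

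Chrm2 (chr6:36388084-36528414), the M2 muscarinic acetylcholine receptor, was among the genes with the largest ratios toward posterior pituitary. It had no count in cerebellum and was at 20.99 and 10.4 TPM in posterior pituitary, at least 1328-fold higher against the 3-count floor (edgeR adjusted p = 9.9e-05). Rbp7, a retinol-binding protein, was at 157.8 and 602.8 TPM against 0.463 and 0.193 TPM (-9.86 ± 1.78, adjusted p = 0.007), and Cyp26b1, which degrades retinoic acid, at 150.3 and 115.2 TPM against 1.12 and 0.417 TPM (-7.16 ± 0.81, adjusted p = 0.00018). Exoc3l2, an exocyst-related gene, was at 445.5 and 222.0 TPM against 0.664 and 0.779 TPM (-8.03 ± 0.51, adjusted p = 6.5e-06). Aqp1, a water channel, was at 21.1 and 23.2 TPM against 0.00 and 0.106 TPM (-7.74 ± 1.57, adjusted p = 0.0117). Ntf3 (neurotrophin 3), Inhbb (an activin and inhibin subunit), Btnl9, Fam167b, Lrrc3b and Oit3 completed this group, with log2 ratios from -9.49 to -7.63 and posterior pituitary means between 25.5 and 436.1 TPM. Without cerebellum replicate 2 the remaining cerebellar library was at 0.00 TPM for Aqp1, Ntf3, Inhbb, Btnl9, Fam167b and Oit3. Their fitted ratios ran from -18.13 to -13.67. Lrrc3b was left at 0.0213 TPM, with a fitted ratio of -9.93. With only the 4 libraries in the fit Aqp1 (adjusted p = 0.0572), Inhbb (0.0824), Btnl9 (0.171) and Fam167b (0.0564) did not pass.

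Of 10 genes of lipid uptake by capillaries, 5 were called higher in posterior pituitary and 0 in cerebellum, with a median log2 ratio of -5.35 (-5.55 with bounds). Gpihbp1, which holds lipoprotein lipase on the capillary wall, was at 417.1 and 280.2 TPM in posterior pituitary and 0.00 and 1.21 TPM in cerebellum (-8.03 ± 1.17, edgeR adjusted p = 0.0012). Fabp4, a fatty acid-binding protein, was at 229.4 and 261.6 TPM against 0.00 and 3.28 TPM (-7.62 ± 1.19, adjusted p = 0.002). Cd300lg, a mucin-like receptor of capillary and venular endothelium, was at 548.5 and 365.0 TPM against 7.52 and 2.91 TPM (-5.84 ± 0.64, adjusted p = 0.00015). Fabp5 and Cd36 were the other calls and, unlike the former 3, were not EC-enriched. With only the 4 libraries in the fit the calls of Gpihbp1 (adjusted p = 0.0684), Fabp4 (0.0839) and Fabp5 (0.179) were lost, and with the length offset that of Cd36 (0.0779). Without cerebellum replicate 2, which left the cerebellar level at 0.00 TPM, the fitted ratios of Gpihbp1, Fabp4 and Fabp5 were -15.66, -15.27 and -13.13. Lpl itself was at 5.65 and 4.42 TPM in posterior pituitary and 6.42 and 2.01 TPM in cerebellum, with overlapping groups.

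Of 20 genes for vasoactive peptides and mediators, 5 were called higher in posterior pituitary and 1 in cerebellum. Ednrb, the endothelin B receptor, was at 362.9 and 155.6 TPM in posterior pituitary and 3.30 and 1.54 TPM in cerebellum (-6.21 ± 0.76, edgeR adjusted p = 0.00036). Ptgs1, which encodes cyclooxygenase 1, was at 187.9 and 85.0 TPM against 0.649 and 0.890 TPM (-7.49 ± 0.45, adjusted p = 2.9e-06). Ramp3, a co-receptor for adrenomedullin, was at 189.5 and 42.5 TPM against 1.23 and 2.72 TPM (-5.45 ± 0.68, adjusted p = 4e-04). Npr1, the receptor of atrial natriuretic peptide (-2.42 ± 0.42, adjusted p = 0.0041), and Ece1, which processes endothelins (-1.33 ± 0.25, adjusted p = 0.0081), were the other 2. Both calls were lost with the length offset (adjusted p = 0.335 and 0.308), and that of Ece1 also with only the 4 libraries (adjusted p = 0.17). Nos3, the endothelial nitric oxide synthase, was higher in cerebellum, at 37.2 and 35.6 TPM against 15.99 and 12.2 TPM (1.83 ± 0.25, adjusted p = 0.00071).

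Of 17 genes of the VEGF, angiopoietin and apelin axes, 5 were called higher in posterior pituitary, 0 in cerebellum and 12 in neither (median log2 ratio -0.66). Kdr (VEGFR2) was at 554.6 and 535.7 TPM in posterior pituitary and 148.1 and 202.7 TPM in cerebellum (-1.29 ± 0.32, edgeR adjusted p = 0.037). Its co-receptors Nrp1 (-1.88 ± 0.26, adjusted p = 0.00069) and Nrp2 (-1.66 ± 0.26, adjusted p = 0.0018), and Tie1 (-1.37 ± 0.24, adjusted p = 0.0039), behaved likewise, as did Flt4 (VEGFR3, -1.51 ± 0.32). Kdr lost its call without cerebellum replicate 1 (adjusted p = 0.191) or posterior pituitary replicate 2 (adjusted p = 0.0766), and Flt4 without the same libraries (adjusted p = 0.0923 and 0.0727). With only the 4 libraries in the fit all 5 calls were lost (adjusted p = 0.307 for Kdr, 0.0869 for Nrp1, 0.0538 for Nrp2, 0.101 for Tie1 and 0.124 for Flt4), and with the length offset those of Kdr (0.0838) and Flt4 (0.0527). Flt1, Tek and Aplnr were not called. Of the 10 general EC markers, 5 were called higher in posterior pituitary (median log2 ratio -0.87), among them Pecam1 at 1031 and 748.2 TPM against 319.5 and 338.4 TPM (-1.12 ± 0.24, adjusted p = 0.0185) and Emcn at 1223 and 582.9 TPM against 166.4 and 154.9 TPM (-1.98 ± 0.27, adjusted p = 0.00081). Without cerebellum replicate 1, Pecam1 (adjusted p = 0.145) and Cdh5 (adjusted p = 0.249) no longer passed, and Cdh5 did not pass without posterior pituitary replicate 2 either (adjusted p = 0.0857). Neither passed with the length offset (adjusted p = 0.147 and 0.148), and with only the 4 libraries Pecam1 (0.263), Cdh5 (0.309) and Emcn (0.0603) did not pass.

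Of 24 genes of the basement membrane and its receptors, 6 were called higher in posterior pituitary, 0 in cerebellum and 18 in neither (median log2 ratio -0.84). Of the 6 calls 4 were EC-enriched, and Col15a1 and Col13a1 were not. Col15a1, a collagen of basement membrane zones, was at 266.4 and 440.1 TPM in posterior pituitary and 0.0365 and 2.05 TPM in cerebellum (-6.59 ± 1.12, edgeR adjusted p = 0.0036). Col13a1, a transmembrane collagen, was at 211.3 and 146.2 TPM against 0.00 and 1.67 TPM (-7.78 ± 1.20, adjusted p = 0.0025), and Hspg2, which encodes perlecan, at 233.3 and 185.8 TPM against 24.6 and 40.6 TPM (-3.01 ± 0.39, adjusted p = 0.00052). Itga9 (-3.90 ± 0.76), Lama3 (-2.86 ± 0.69) and Itga5 (-1.61 ± 0.36) were the other calls. Lama3 lost its call without cerebellum replicate 2 (adjusted p = 0.0733) or posterior pituitary replicate 2 (adjusted p = 0.052), and Itga5 without cerebellum replicate 1 (adjusted p = 0.249) or with the length offset (0.497). With only the 4 libraries in the fit the calls of Col13a1 (adjusted p = 0.0863), Col15a1 (0.105), Itga9 (0.0817) and Itga5 (0.148) were lost. The size of both collagen ratios rests on cerebellum replicate 2, without which they were fitted at -15.90 for Col13a1 and -10.74 for Col15a1 against a library at 0.00 and 0.0365 TPM, and that of Itga9 was -5.55 without it. The type IV collagens Col4a1, at 1691 and 4832 TPM against 498.5 and 782.1 TPM, and Col4a2 were not called (adjusted p = 0.0661 and 0.075).

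Lists of vessel segments and immune contact held calls in both directions. In the arterial and Notch list 1 of 17 genes was higher in cerebellum (Gkn3, with no count in posterior pituitary and at least 516-fold higher). Gkn3 was not EC-enriched. The 1 call in posterior pituitary was Efnb2 (-1.96 ± 0.27, edgeR adjusted p = 0.00071), which was EC-enriched. In the venous and adhesion list 2 of 11 were higher in cerebellum (Vcam1, 3.57 ± 0.43, adjusted p = 0.00033, and Vwf, 1.82 ± 0.44, adjusted p = 0.0315). The 2 calls in posterior pituitary were Ephb4 (-1.81 ± 0.36) and Cd74 (-5.00 ± 0.68). In each direction 1 of the 2 calls was EC-enriched. Vwf was lost without posterior pituitary replicate 1 (adjusted p = 0.0796), with the length offset (0.168) or with only the 4 libraries (0.148), and Ephb4 without cerebellum replicate 1 (adjusted p = 0.0529) or with only the 4 libraries (0.0853). The class I genes H2-K1, H2-D1 and B2m were higher in posterior pituitary (log2 ratios from -1.93 to -1.76) and Ifit1 and Ly6c1 in cerebellum, which gave 3 and 2 of 14. Ly6c1 lost its call without cerebellum replicate 2 (adjusted p = 0.117) or posterior pituitary replicate 2 (adjusted p = 0.133). The offset ended the calls of Ifit1 (adjusted p = 0.0813) and Ly6c1 (0.0768), and the fit of only the 4 libraries those of H2-D1 (0.0768), B2m (0.129), Ifit1 (0.242) and Ly6c1 (0.286). The ratio of Ifit1 was 3.62, or 6.84 without posterior pituitary replicate 1.

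Bmp6 was the only call among 16 genes of BMP and TGF-beta signaling, at 113.6 and 27.6 TPM in posterior pituitary and 0.210 and 1.12 TPM in cerebellum (-5.40 ± 0.77, edgeR adjusted p = 0.00093; -7.19 without cerebellum replicate 2). Of 10 surface peptidases and related enzymes, Cpe and the carbonic anhydrase Car4 were higher in cerebellum and Enpep in posterior pituitary. Of these calls only that of Car4 was EC-enriched. Car4 was at 1482 and 1147 TPM in cerebellum and 255.9 and 86.4 TPM in posterior pituitary (3.38 ± 0.47, adjusted p = 0.0008). None of 14 immediate early genes was called; Fos was at 309.3 and 12.2 TPM in cerebellum and 610.1 and 237.9 TPM in posterior pituitary, and the cerebellar replicates lay far apart.

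To place the posterior pituitary levels, WT anterior pituitary ECs, another fenestrated bed, were read from the same fit. In that contrast 77 genes (0.430%) were called higher in posterior and 41 (0.229%) in anterior pituitary ECs; it shares the posterior pituitary libraries with the comparison above, so values are only set side by side. Without posterior pituitary replicate 1 these counts were 275 and 305, with DESeq2 251 and 166, without the low-count filter 236 and 190, and without the library whose labels disagree 178 and 121. They fell to 42 and 20 with the length offset and to 35 and 15 with only the 6 WT libraries. Plvap was at 845.2 and 1028 TPM in anterior pituitary ECs and did not differ beyond its error from posterior pituitary (log2 posterior over anterior -0.05 ± 1.39, edgeR adjusted p = 1). Slc2a1 was at 10.8 and 16.7 TPM there and Cldn5 at 23.4 and 21.9 TPM, close to the posterior pituitary values. Several genes at intermediate levels in posterior pituitary were lower still in anterior pituitary. Car4 was at 0.00 and 0.179 TPM in anterior pituitary (posterior over anterior 10.58 ± 0.73, adjusted p = 3.5e-05), against 86.4 to 255.9 TPM in posterior pituitary and 1147 to 1482 TPM in cerebellum. Slco1a4, an organic anion carrier, was at 556.7 and 698.2 TPM in cerebellum, 21.4 and 42.6 TPM in posterior pituitary and 7.12 and 0.859 TPM in anterior pituitary (posterior over anterior 3.26 ± 0.47, adjusted p = 0.0044). Slco1c1, Foxf2, Vcam1, Vwf, Slc39a8, Slc6a6 and Fzd6 were also called higher in cerebellum than in posterior pituitary, and the posterior over anterior ratio had an adjusted p between 3.5e-05 and 0.0076. Of these only Slc6a6 and Fzd6 reached the 10 TPM minimum in both posterior libraries and count as called there.

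Further genes higher in posterior pituitary than in cerebellum were read in anterior pituitary as well. Cd36 was at 23.95 and 31.7 TPM in posterior pituitary and at 0.00 TPM in both anterior pituitary libraries (edgeR adjusted p = 0.00086). Chrm2 was at 0.404 and 0.288 TPM in anterior pituitary (posterior over anterior 4.64 ± 0.76, adjusted p = 0.016), and Cd300lg at 41.4 and 25.05 TPM (3.55 ± 0.57, adjusted p = 0.0097). For Rbp7 (6.73 ± 1.52, adjusted p = 0.072), Aqp1 (4.85 ± 1.31, adjusted p = 0.13) and Bmp6 (3.02 ± 0.68, adjusted p = 0.064) the posterior libraries were higher than both anterior libraries, without passing the test. Cav1, which was not called between cerebellum and posterior pituitary, was at 68.4 and 24.1 TPM in anterior pituitary (posterior over anterior 3.42 ± 0.32, adjusted p = 0.00015).

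Markers of other cells were read in the same libraries. Transcripts of 12 mural cell markers summed to 1188 and 941.3 TPM in the cerebellar libraries and 164.1 and 84.3 TPM in the posterior pituitary libraries, and 4 of 12 were called higher in cerebellum (median log2 ratio 4.44) and 0 in posterior pituitary. Rgs5 was the most abundant, at 548.1 and 487.7 TPM against 123.4 and 59.4 TPM (2.62 ± 0.26, edgeR adjusted p = 6.7e-05), and it is among the 154 EC-enriched genes, since the GFP-positive fraction held more of it than the GFP-negative fraction. Vtn was at 334.6 and 279.3 TPM against 5.20 and 0.00 TPM, with a ratio of 6.15 that was 16.08 without posterior pituitary replicate 1 and did not pass with only the 4 libraries (adjusted p = 0.17), and Atp13a5 had no count in posterior pituitary and was at least 2235-fold higher in cerebellum. The part of mural RNA in the genes called higher in cerebellum was not tested.

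Of 10 pituitary endocrine markers, Pomc alone was called, higher in posterior pituitary. Pomc, which melanotrophs and corticotrophs transcribe, was at 3307 and 470.1 TPM in posterior pituitary ECs and 24.6 and 28.1 TPM in cerebellar ECs (-5.98 ± 1.07, edgeR adjusted p = 0.0053; -4.30 without posterior pituitary replicate 1). In the GFP-negative cells of the posterior pituitary Pomc was at 53739 and 55689 TPM. The 10 endocrine markers summed to 54640 and 56780 TPM there, whereas the 6 pituicyte markers summed to 52.4 and 54.9 TPM. The dissected posterior pituitary thus held endocrine cells, and EC enrichment there was measured against a fraction rich in their transcripts. Whether some of the sorted ECs came from endocrine tissue was not tested. Erythrocyte transcripts summed to 65220 and 7177 TPM in cerebellum and 5289 and 1548 TPM in posterior pituitary; Hbb-bs was called higher in cerebellum (3.56), though not without cerebellum replicate 1 (1.33, adjusted p = 0.258), without posterior pituitary replicate 2 (adjusted p = 0.103) or with only the 4 libraries (0.217).

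Neuronal markers summed to at most 16.5 TPM and microglial and macrophage markers to at most 58.3 TPM in any of the 4 libraries, with 0 calls, and fibroblast and pituicyte markers likewise had 0 calls. Of 7 astrocyte markers, 6 had ratios toward cerebellum and 1 toward posterior pituitary, with a median log2 ratio of 3.64. Only Gja1 was called, higher in posterior pituitary at 412.8 and 51.8 TPM against 78.9 and 78.0 TPM. Its groups overlapped, and its call was lost with the length offset (edgeR adjusted p = 0.586) and with only the 4 libraries (0.0581). Mbp was the only oligodendrocyte call (4.59 ± 0.78, higher in cerebellum, edgeR adjusted p = 0.0037), at 32.1 and 23.7 TPM. In the lymphatic list, Flt4 was higher in posterior pituitary and Ccl21a in cerebellum, at 205.1 and 219.5 TPM with no count in posterior pituitary, while Prox1, Pdpn and Lyve1 stayed under 2 TPM in all 4 libraries. Ccl21a has near-identical copies that can share reads, so its value is uncertain. The genes with the largest ratios that were not EC-enriched included Tnfrsf19, Atp13a5, the mitochondrial mt-Co3 and Flvcr2 toward cerebellum, and Meis2, Spats2l, H2-Aa, Col13a1 and Col15a1 toward posterior pituitary. The value of mt-Co3 is uncertain too: it was at 296.6 and 116.2 TPM in cerebellum and listed at 0 in both posterior pituitary libraries, where mt-Co1, of the same mitochondrial complex, was at 7300 and 4606 TPM. Meis2 had 1 count in cerebellum against 123.8 and 140.9 TPM in posterior pituitary, and H2-Aa, a class II gene of antigen-presenting cells, had 2 counts against 35.4 and 26.3 TPM; the part of such cells in the comparison was not tested.

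The 154 and 225 EC-enriched genes were then read in a barrier comparison that shares no library with the one above, ribosome-bound RNA of WT cortex against WT choroid plexus, whose capillaries are fenestrated. There 2656 of 16775 genes (15.8%) were called higher in cortex and 2334 (13.9%) in choroid plexus, so that a share of about these sizes is the background. Of the 154 genes higher in cerebellum, all of which were tested, 86 (55.8%) were called higher in cortex and 15 (9.74%) higher in choroid plexus, and their median log2 ratio of cortex over choroid plexus was 1.22, against 0.01 over all genes. Of the 225 genes higher in posterior pituitary, 223 were tested; 86 of these (38.6%) were higher in choroid plexus and 23 (10.3%) in cortex, with a median of -0.97. The shares called the same way lay above the background and the opposite shares below it. Leaving out either bound choroid plexus library lowered the opposite count of 23. The bound RNA of cortex also held transcripts of other cells: microglia and macrophage markers summed to 3783 and 2643 TPM in cortex and 101.4 and 161.5 TPM in choroid plexus, neuronal markers to 1077 and 1267 TPM against 13.4 and 10.6 TPM, and oligodendrocyte markers to 1161 and 1210 TPM against 26.4 and 23.8 TPM. The endothelial markers summed to 1385 and 554.2 TPM in cortex and 496.3 and 613.3 TPM in choroid plexus. The tight junction genes summed to 1160 and 676 TPM in cortex and 1171 and 1029 TPM in choroid plexus. An epithelium surrounds the choroid plexus capillaries, and its markers were not read here. The part of other cells of either tissue in these shares was not tested.

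**Figure D4:**
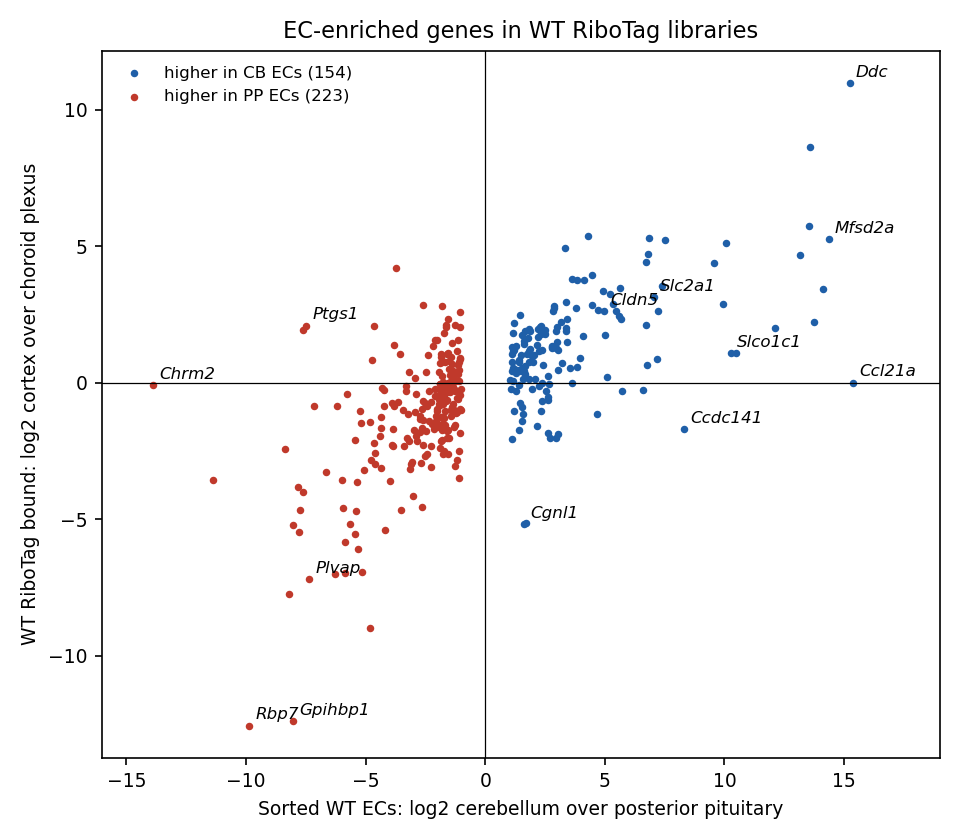
Fitted log2 ratio of cerebellum over posterior pituitary in sorted WT ECs (x axis) against the fitted log2 ratio of cortex over choroid plexus in WT RiboTag bound RNA (y axis) for the EC-enriched genes, blue for the 154 higher in cerebellum and red for the 223 tested that were higher in posterior pituitary. Ratios of genes with few counts in a group, such as Ddc and Rbp7, depend on the fit and are not bounds; most blue points lie above 0 and most red points below 0, and Cgnl1, Ccdc141 and Ptgs1 lie on the other side.

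Among the transporters, Slc2a1 (log2 cortex over choroid plexus 3.13, edgeR adjusted p = 0.0011), Mfsd2a (5.25, adjusted p = 8.7e-05), Slc7a5 (3.56, adjusted p = 0.00014) and Slc38a5 (5.11, adjusted p = 9.4e-05) were higher in cortex as they were in cerebellum. Slco1c1 and Slc22a8 were higher in cortex too, with smaller ratios of 1.09 and 1.99. Plvap (-7.20, adjusted p = 0.00047), Exoc3l2 (-5.20, adjusted p = 0.011), Btnl9 (-5.48, adjusted p = 0.0048) and Cd300lg (-5.84, adjusted p = 0.0014) were higher in choroid plexus as in posterior pituitary. Gpihbp1 and Rbp7 had no count in cortex and 980 and 1093 counts in choroid plexus. Chrm2 was not called (-0.08, adjusted p = 0.89), and Ptgs1 went the other way, higher in cortex (2.09, adjusted p = 0.0022). Cgnl1, a junction protein higher in cerebellum than in posterior pituitary, was higher in choroid plexus than in cortex (-5.17, adjusted p = 3.1e-05), with 59115 counts there. Lef1 (0.66, adjusted p = 0.21) did not pass, Axin2 was higher in choroid plexus (-1.51, adjusted p = 0.0021) and Apcdd1 higher in cortex (5.35, adjusted p = 0.00026). Whether RNA of other cells entered these ratios, among them those of Cgnl1, Axin2, Ptgs1 and Slco1c1, was not tested.

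Chromatin at the gene starts was read from ATAC-seq peaks of the same WT tissues, called per library (25684 to 31797 peaks kept). A start counted as open in a tissue alone when a peak lay within 1000 bp in both replicates of that tissue and in neither replicate of the other. Of the 154 genes higher in cerebellar ECs, 105 had a peak in all 4 libraries, 18 (11.69%) in cerebellum alone and 2 in posterior pituitary alone. Of the 225 genes higher in posterior pituitary ECs, 144 had a peak in all 4 libraries, 19 (8.44%) in posterior pituitary alone and 1, Stab1, in cerebellum alone. Over all 17915 genes the shares were 1.28% for cerebellum alone and 1.37% for posterior pituitary alone. A peak in all 4 libraries was found for 68.2% and 64.0% of the genes of each direction, near the 57.9% of all genes.

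**Figure D5:**
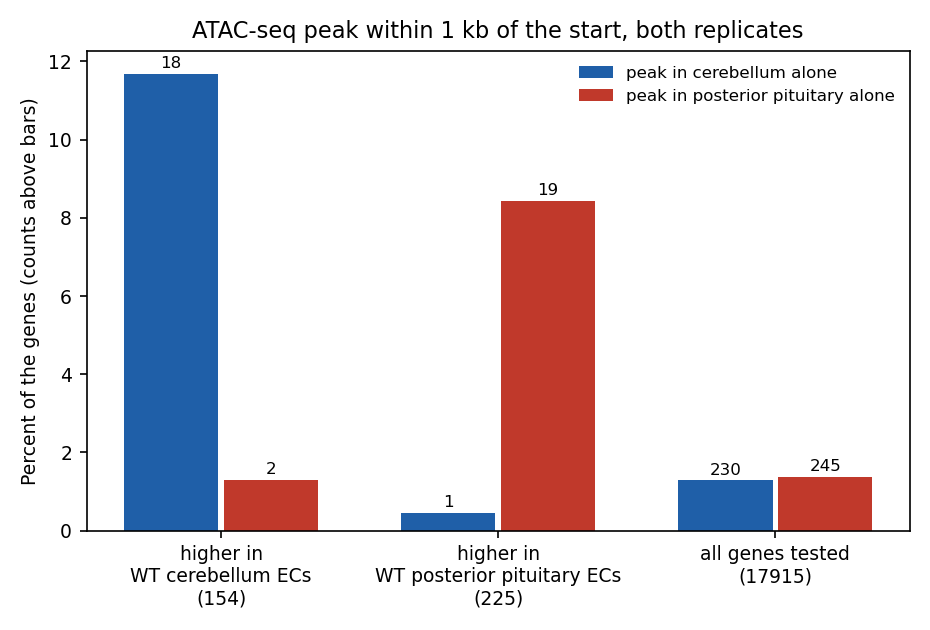
Percent of genes with an ATAC-seq peak within 1000 bp of the start in both replicates of WT cerebellum alone (blue) or WT posterior pituitary alone (red), for the EC-enriched genes of each direction and all genes tested, with counts above the bars. The 18 of 154 and 19 of 225 genes in the matching tissue stand above the 1.28% and 1.37% of all genes.

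The starts open in cerebellum alone included those of Slco1c1, Mfsd2a, Slc22a8, Slco1a4, Slc19a3, Slc35f2, Lef1, Car4, Degs2, Srarp, Pcp4l1, Bche, Egflam, Kbtbd11, Afap1l2 and AU021092, among them 6 solute carriers and the transcription factor Lef1. At Slco1c1 the peak had a fold enrichment of 10.1 and 11.0 in the cerebellar replicates, and its summit lay 278 and 242 bp before the start. At Mfsd2a the fold enrichment was 8.53 and 7.47, with the summit 38 and 4 bp before the start, and at Lef1 it was 4.67 and 3.36. The starts open in posterior pituitary alone included those of Plvap (fold enrichment 3.92 and 4.38), Chrm2 (3.26 and 3.83), Exoc3l2, Btnl9, Fam167b, Ptgs1, Ednrb, Ramp3 and Slc43a3, the last with the highest enrichment (9.91 and 7.69). Absence of a called peak is not absence of signal, since it depends on the threshold in each library.

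For members whose peak summits in both replicates fell within the 150 bases before the GENCODE start, and whose RefSeq start lay within 50 bases of it, the 150 bases before the RefSeq start are shown so that the chromatin result can be tied to a sequence. The RefSeq start of Fam167b lies 31 bases before the GENCODE one, so that its replicate 1 summit, 5 bases before the latter, falls outside the printed stretch. They are RefSeq promoters on GRCm38.p6, 5′ to 3′ on the strand of the gene, and capitals mark matches to the letters searched. Mfsd2a is at chr4:122961189-122961338, Degs2 at chr12:108702307-108702456, Srarp at chr4:141436106-141436255 and Slco1a4 at chr6:141856221-141856370, all on the minus strand and open in cerebellum alone. Fam167b is at chr4:129578581-129578730 on the minus strand and Ramp3 at chr11:6658383-6658532 on the plus strand, both open in posterior pituitary alone.
Mfsd2a: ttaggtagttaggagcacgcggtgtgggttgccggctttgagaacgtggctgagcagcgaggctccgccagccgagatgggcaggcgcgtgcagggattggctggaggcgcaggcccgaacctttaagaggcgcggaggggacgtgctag
Degs2: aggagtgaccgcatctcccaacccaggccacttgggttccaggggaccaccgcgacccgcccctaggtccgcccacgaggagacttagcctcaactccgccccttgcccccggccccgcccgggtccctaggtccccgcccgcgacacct
Srarp: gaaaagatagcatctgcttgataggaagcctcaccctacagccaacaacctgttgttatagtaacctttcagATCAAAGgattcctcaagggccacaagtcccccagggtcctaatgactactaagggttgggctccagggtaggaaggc
Slco1a4: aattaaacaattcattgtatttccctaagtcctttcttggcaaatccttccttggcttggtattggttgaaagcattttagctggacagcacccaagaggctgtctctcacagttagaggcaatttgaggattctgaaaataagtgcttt
Fam167b: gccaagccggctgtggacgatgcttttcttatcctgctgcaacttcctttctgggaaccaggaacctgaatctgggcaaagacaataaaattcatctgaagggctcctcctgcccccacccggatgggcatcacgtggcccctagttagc
Ramp3: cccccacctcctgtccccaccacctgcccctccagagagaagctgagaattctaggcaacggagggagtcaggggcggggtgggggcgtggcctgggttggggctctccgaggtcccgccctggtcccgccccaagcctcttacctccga
The letters searched were ATCAAAG and TTCAAAG, bound by TCF/LEF factors, CCGGAAG, bound by ETS factors, and AGATAAG and TGATAAG, bound by GATA factors, on both strands of the window from 250 bases before to 50 after the start. A window was matched for 10790 of the 17915 genes. The TCF/LEF letters were found in 6.10% of all windows, in 6 of the 100 windows of genes higher in cerebellum (6%) and in 5 of the 150 windows of genes higher in posterior pituitary (3.33%). Among the starts open in cerebellum alone 2 of 13 windows held them, those of Slc19a3 and Srarp, and among those open in posterior pituitary alone 0 of 15. In Srarp the match lay 78 bases before the start, in the stretch printed above. The ETS letters were in 17.4% of all windows and in 5% and 4% of the windows of the genes higher in cerebellum and in posterior pituitary, and the GATA letters in 2.80%, 3% and 2.67%. A match describes letters in this window and says nothing of whether a factor binds.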

How the data were processed

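Per the labels and the study's methods, RNA was amplified (Ovation Ultralow) and sequenced single-end, and the authors quantified transcripts with Salmon 0.10.2 against Ensembl 92 (mm10/GRCm38). The deposited files give estimated counts and TPM per transcript. The authors called ATAC-seq peaks per library with MACS2 2.1.1.20160309; the deposited peaks carry a fold enrichment ratio and −log10 q.

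Transcripts were summed to genes with GENCODE M21 and counts rounded. Genes passing filterByExpr entered edgeR 4.0.16 (TMM, 1 coefficient per group) over the 12 GFP-positive libraries; enrichment came from all 24 sorted libraries, and RiboTag from the 8 bound ones. The study used a 10 TPM minimum likewise. Peaks were kept at fold enrichment over 2 and −log10 q over 2. Counting intervals and floors (3 counts, 95%) cover counting error only. Cerebellum and posterior pituitary replicates are tied by number alone in the labels, and whether they shared mice is not stated. Per the methods, both pituitary lobes of a pool, and both GFP fractions of a sort, came from the same mice. P-values measure the spread between these samples.

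Named genes were the 15 largest ratios per direction among called, non-overlapping, EC-enriched protein-coding genes, 28 anchor genes, called and abundant list members, the most abundant markers, and the 5 largest ratios that were not EC-enriched. Members and lists were chosen with earlier results of these data known. On simulated data of 17147 genes, 4% of genes changed 2-fold, 30% changed 4-fold, 66% changed 8-fold and 80% changed 16-fold were recovered, with 8 false calls. Recovery asked for adjusted p under 0.05 and a fitted ratio of at least 2-fold, without the 10 TPM minimum. A true 2-fold change can thus miss the ratio cutoff whatever its spread. Alternatives were DESeq2 1.42.0, RLE factors, no low-count filter, a replicate block, a length offset, fewer libraries, other thresholds and single libraries left out. RiboTag input and other ATAC-seq libraries were not used here, and a few genes that these rules name are not reported here.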

Additional observations from a re-analysis of the deposited data

How the results depend on the processing

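Higher genes in cerebellum and posterior pituitary numbered 303 and 304, and EC-enriched ones 154 and 225. DESeq2 called 471 and 347 in posterior pituitary (all and EC-enriched). Without the low-count filter 464 and 350 were higher in posterior pituitary, and 237 EC-enriched genes in cerebellum. The length offset gave 201 and 189, EC-enriched 92 and 138. Only these 4 libraries gave 157 and 130, EC-enriched 90 and 95, and the 6 WT GFP-positive libraries 196 in cerebellum. At least 4-fold, 201 and 170 remained, EC-enriched 100 and 114. Leaving out each library in turn gave 283 to 504 and 247 to 416, EC-enriched 138 to 183 and 178 to 292; the 504 came without posterior pituitary replicate 1, where the median log2 ratio of all genes was 0.14. The cause of these shifts was not tested, save that stricter thresholds admit fewer genes.

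Whether cerebellum and posterior pituitary replicates of the same number shared mice is not stated. Their replicate differences correlated with r = 0.0085 over 17915 genes, which cannot decide it. Pituitary lobes, and GFP fractions, came from shared mice. With a replicate block 324 and 325 genes were higher, EC-enriched 158 and 244, and 97 and 55 between posterior and anterior pituitary, and it ended the call of 0 of 134 followed genes; in RiboTag it gave 84 and 86.

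RiboTag agreement ranged over 64 to 90 and 69 to 102 genes without 1 bound library. Starts open in a single tissue numbered 20 to 26 in cerebellum and 27 to 29 in posterior pituitary when judged in 1 replicate pair, against 2.84% to 2.95% and 2.75% to 3.37% of all genes.

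Of 134 called genes followed, 26 lost the call without 1 library, 30 with the length offset, 49 with only 4 libraries and 0 with DESeq2 or RLE factors. On the TPM scale Slc3a2 reversed (-0.11 with a pseudocount of 1 or 0.1). Medians of 7 lists changed sign in some omission of 1 library. Their ranges were -0.68 to 0.00255 for ABC transporters, -0.45 to 0.26 for arterial genes, -0.56 to 0.87 for venous genes, -0.77 to 0.053 for vasoactive genes, -0.23 to 1.61 for peptidases, -2.02 to 0.52 for microglia and -4.43 to 0.87 for pituicytes. In simulated data of this design few 2-fold changes were recovered (4%), where recovery itself asked for a fitted ratio of at least 2-fold.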

Other observations

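Apart from Ddc, which is among the 15 largest EC-enriched ratios toward cerebellum, the following genes were chosen after their values were seen and were on no list. Bsg, which encodes basigin, the partner of monocarboxylate transporters, was at 2873 and 3597 TPM in WT cerebellar ECs and 120.3 and 73.4 TPM in WT posterior pituitary ECs (log2 ratio 5.10 ± 0.35, edgeR adjusted p = 6.1e-06), yet was not called between cortex and choroid plexus in the RiboTag libraries (0.21, adjusted p = 0.64). Maoa, which oxidizes monoamines, was at 99.5 and 96.1 TPM against 4.00 and 2.89 TPM, and Ddc, which decarboxylates L-DOPA, had no count in posterior pituitary and was at least 3017-fold higher in cerebellum. All 3 genes are among the 154 EC-enriched genes.

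Toward posterior pituitary, Piezo2, a mechanically gated channel, was at 20.9 and 19.2 TPM against 0.193 and 1.37 TPM (-5.85 ± 0.55, edgeR adjusted p = 7.8e-05), and was also higher in choroid plexus than cortex (-6.97, adjusted p = 0.00075). Plpp1 and Plpp3, which dephosphorylate lysophosphatidic acid and related lipids, were at 2864 and 840.5 TPM and at 720.9 and 382.9 TPM in posterior pituitary, against at most 22.9 TPM in cerebellum. Igfbp3, which binds insulin-like growth factors, was at 808.8 and 1553 TPM against 4.47 and 23.98 TPM (-5.95 ± 1.11, adjusted p = 0.0068).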
